A study of Mus musculus with 8 samples.

Results

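Before a cell copies its DNA, the origins of replication are licensed: the helicase core, a ring of the proteins encoded by Mcm2, Mcm3, Mcm4, Mcm5, Mcm6 and Mcm7, is loaded onto the DNA by the origin recognition complex, CDC6 and CDT1. MCM10 carries a similar name but is not part of the ring; it joins later and helps the loaded helicase to start and to travel with the fork. MCM8 and MCM9 are relatives of the ring subunits that work together in repair by homologous recombination. In the adult liver most hepatocytes are out of the cell cycle, and E2F transcription factors are known to drive most of these genes when cells enter it. The 10 genes Mcm2 to Mcm10 and Cdt1 were taken by gene name from the 30266 genes of the deposited table, and each name matched 1 row. The set was built around Mcm10, which was chosen by its lower read counts after FGF21 in these same libraries. Its difference between the groups is therefore a description here, as are those of the other members in the same comparison.

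The libraries came from whole liver of male Mdr2-/- mice, 8 weeks old, that had received PBS (4 libraries) or recombinant FGF21 (rFGF21) at 1.0 mg/kg (4 libraries) 4 h before the liver was taken. Mdr2, now called Abcb4, exports phospholipid into bile, and its loss leads to bile duct injury and fibrosis; both groups carry this genotype, and the series has no wild-type group here. The labels do not give the allele, the route of injection or whether each library is a separate animal, and the p-values therefore reflect only how these libraries scatter, which may be technical. In whole liver, fewer cells of a type and less RNA per cell cannot be told apart.

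Library totals ran from 62756328 to 73313449 reads, and each library is named by its group and the number in its column, which does not match a single label. The library protocol names retina as the tissue, whereas the tissue label says liver. Of 5 photoreceptor markers, 4 were in the table and none passed the filter on low counts. Crx and Rcvrn had 0 reads in each library, a count that is compatible with at most 3 reads in any of them, while 5 hepatocyte markers together took 59509 to 80429 CPM (CPM is the read count scaled by TMM to a common library size). Over all 18315 genes tested, edgeR's quasi-likelihood test called 516 genes (2.82%), 210 higher and 306 lower after rFGF21, at an adjusted p under 0.05 (Benjamini-Hochberg). With limma on log2(FPKM + 0.1) values the split was 126 higher and 112 lower. Those FPKM values were scaled by library totals, without TMM. The median log2 fold change over all genes was 0.078 with them, against 0.003 with edgeR.

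The promoters of 3 members are shown first because E2F sites are the best known feature that this family shares; Mcm10 is shown with the ring subunits that held the most and the fewest matches. RefSeq (GRCm38.p6) gave windows of 300 bases, 250 before to 50 after each start, for 9 of the 10 members; Mcm4 had no entry. Each window was searched on both strands for the E2F-like letters TTTGGCG, for the variant TTTCGCG, for TTTCCCG, and for TTTGCCG as well; matches may overlap each other. Capitals mark the matches, on either strand, and each sequence runs 5′ to 3′ along the gene's own strand.
Mcm10 promoter, chr2:5012742-5013041, minus strand: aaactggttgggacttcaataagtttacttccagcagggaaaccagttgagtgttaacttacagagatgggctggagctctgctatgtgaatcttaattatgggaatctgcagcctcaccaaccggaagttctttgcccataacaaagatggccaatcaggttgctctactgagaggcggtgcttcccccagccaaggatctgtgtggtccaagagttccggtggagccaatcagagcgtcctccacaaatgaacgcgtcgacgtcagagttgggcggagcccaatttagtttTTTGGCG
Mcm6 promoter, chr1:128359656-128359955, minus strand: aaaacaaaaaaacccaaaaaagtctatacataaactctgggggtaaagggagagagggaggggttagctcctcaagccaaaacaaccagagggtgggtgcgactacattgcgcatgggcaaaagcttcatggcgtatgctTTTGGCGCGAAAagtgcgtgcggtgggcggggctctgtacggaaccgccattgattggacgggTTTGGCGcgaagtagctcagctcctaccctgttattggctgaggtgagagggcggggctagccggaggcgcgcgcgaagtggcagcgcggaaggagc
Mcm2 promoter, chr6:88898731-88899030, minus strand: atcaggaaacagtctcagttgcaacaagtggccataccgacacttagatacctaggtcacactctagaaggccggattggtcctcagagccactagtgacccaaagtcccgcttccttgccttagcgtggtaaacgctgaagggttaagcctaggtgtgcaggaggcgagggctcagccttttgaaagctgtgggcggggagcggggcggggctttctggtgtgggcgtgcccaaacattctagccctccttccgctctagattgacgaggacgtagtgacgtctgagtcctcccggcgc

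The Mcm10 window held 1 match, TTTGGCG, which begins at base 294 of the window. The Mcm6 window held 3, of which 2 overlap. The Mcm2 window held 0. Matches were found in the windows of 7 of the 9 members with an entry (Mcm3, Mcm5, Mcm6, Mcm7, Mcm8, Mcm10 and Cdt1) and in 6.7% of all 32851 windows of this length in the table. Mcm7 had 2 windows, of which the second held 0 matches. Members are thus counted per gene, whereas the shares of all windows are per window. With the longer letters TTTGGCGC, TTTCGCGC, TTTCCCGC and TTTGCCGC, 6 of the 9 and 2.26% of all windows had a match; Mcm10 was the member that dropped out, its window ending at the seventh letter. A match is a run of letters and not a measured binding site.

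Mcm10 (ENSMUSG00000026669, GRCm38 chromosome 2, 4989714 to 5012791, minus strand, protein coding) was read at 53.3, 40.8, 58.5 and 60.9 CPM in PBS libraries 1, 2, 4 and 5. In rFGF21 libraries 1, 2, 3 and 5 it was read at 20.5, 20.6, 13.6 and 6.25 CPM. The lowest PBS library lay well above the highest rFGF21 library, and the spread was widest within the rFGF21 group, where library 5 was lowest. The means were 53.4 ± 8.95 and 15.2 ± 6.82 CPM (SD, n = 4 each), a fold of 3.51 between the groups and a log2 fold change of -1.81 ± 0.31 (SE). The gene had between 473 and 4185 reads per library, so counting error is small beside the spread between libraries. No other gene of GENCODE release M21 overlaps Mcm10, though whether its reads also map elsewhere was not examined.

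Of the 10 members, 10 passed the filter on low counts and 1, Mcm10, was called lower, beside 1.67% of all genes tested; none was called higher, beside 1.15%, so 1 was called in either direction, beside 2.82%. The groups did not overlap for 1 of the 10, again Mcm10, beside 6.39% of all genes with rFGF21 entirely lower, 5.9% with rFGF21 entirely higher and 12.3% in either direction. The median log2 fold change of the members was -0.48, beside 0.00 over all genes tested, and 9 of the 10 were below 0. The members were proposed with this comparison in view, so these shares are given without a reading.

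**Figure D1:**
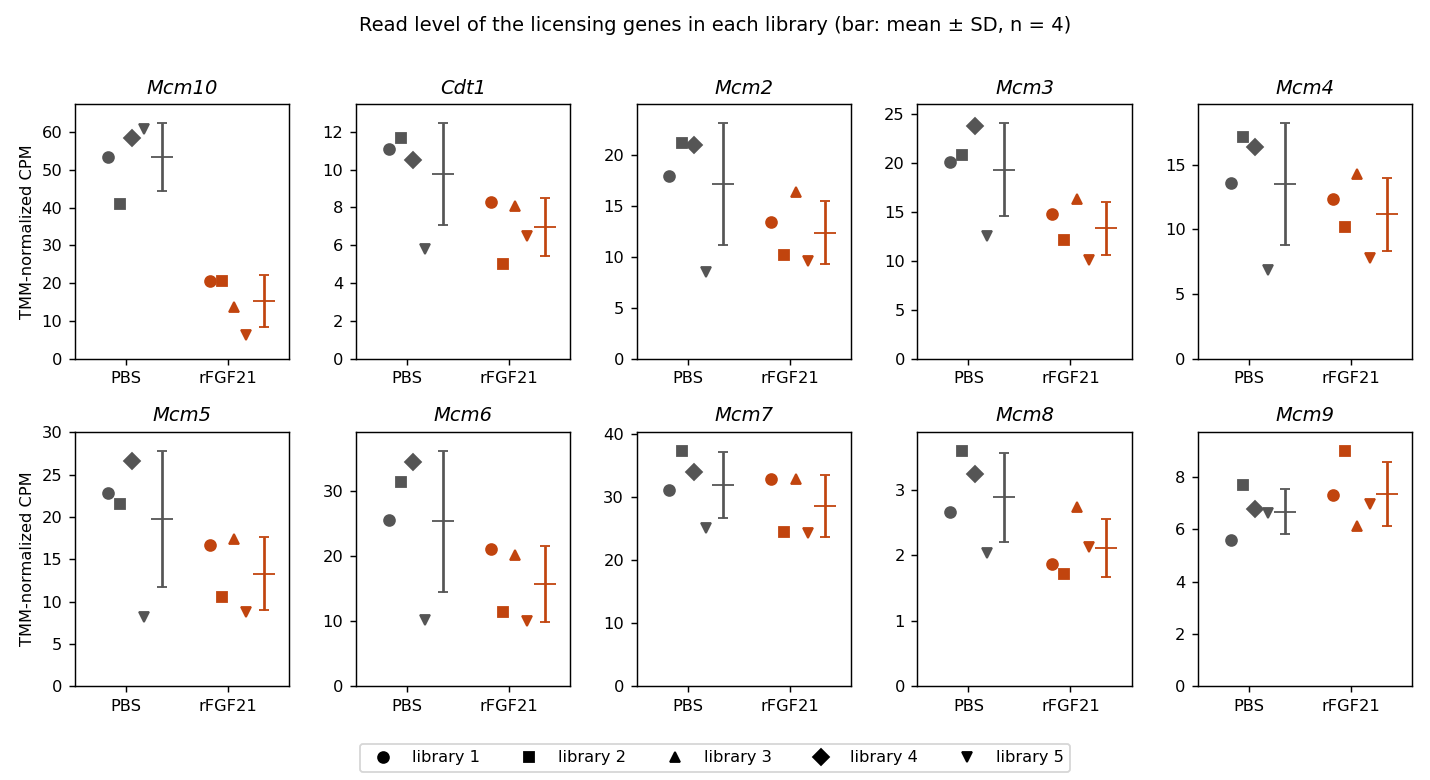
TMM-normalized CPM (vertical axis, from 0) of the 10 licensing genes in each of the 4 PBS and 4 rFGF21 libraries; marker shape gives the library number, and the bar beside each group is the mean ± SD. Mcm10 alone shows groups that do not overlap, from 40.8 to 60.9 CPM in PBS and from 6.25 to 20.6 CPM after rFGF21.

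The loader Cdt1 (chromosome 8, 122568015 to 122573128, plus strand) was read at 11.1, 11.7, 10.5 and 5.79 CPM in PBS libraries 1, 2, 4 and 5. After rFGF21 it was read at 8.28, 5.01, 8.09 and 6.49 CPM in libraries 1, 2, 3 and 5. PBS library 5 lay inside the rFGF21 range, and the other 3 PBS libraries lay above it. The log2 fold change was -0.49 ± 0.23 (SE), with a 95% interval of -1.002 to 0.03.

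Among the ring subunits, Mcm6 (chromosome 1, 128331590 to 128359664) differed most in mean, with 25.6, 31.4, 34.5 and 10.1 CPM in PBS libraries 1, 2, 4 and 5. The rFGF21 libraries 1, 2, 3 and 5 held 21.2, 11.4, 20.3 and 10.03 CPM. The lowest PBS library thus stood at the level of the lowest rFGF21 library. The log2 fold change of -0.69 ± 0.35 (SE) had a 95% interval of -1.48 to 0.09.

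Mcm5 (chromosome 8, 75109569 to 75128439) was likewise lowest in PBS library 5 among the PBS libraries, at 22.8, 21.6, 26.6 and 8.16 CPM in PBS libraries 1, 2, 4 and 5. It was read at 16.7, 10.5, 17.3 and 8.74 CPM in rFGF21 libraries 1, 2, 3 and 5. PBS library 5 was here the lowest of all 8. The log2 fold change was -0.57 ± 0.33 (SE).

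Mcm2 (chromosome 6, 88883474 to 88898780) was read at 17.9, 21.1, 21.0 and 8.44 CPM in PBS libraries 1, 2, 4 and 5, and Mcm3 (chromosome 1, 20802968 to 20820312) at 20.1, 20.7, 23.7 and 12.6 CPM. After rFGF21, libraries 1, 2, 3 and 5 held 13.4, 10.1, 16.3 and 9.60 CPM of Mcm2. For Mcm3 the same libraries held 14.7, 12.1, 16.3 and 10.1 CPM. For both, the 3 PBS libraries other than library 5 lay above each rFGF21 library. The log2 fold changes were -0.47 ± 0.27 for Mcm2 and -0.53 ± 0.20 for Mcm3 (SE), and the 95% interval of Mcm3, -0.98 to -0.09, did not reach 0, although it was not called over all genes.

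Mcm4 (chromosome 16, 15623897 to 15637400) and Mcm7 (chromosome 5, 138164583 to 138172422) differed least among the ring subunits. Mcm4 ranged from 6.84 to 17.2 CPM in PBS and from 7.80 to 14.3 CPM after rFGF21, a log2 fold change of -0.28 ± 0.27 (SE). Mcm7 ranged from 25.1 to 37.3 CPM in PBS and from 24.2 to 32.8 CPM after rFGF21, a log2 fold change of -0.16 ± 0.15 (SE), with a 95% interval of -0.49 to 0.17. Its groups overlapped between 25.1 and 32.8 CPM, with PBS libraries 2 and 4 above that range and rFGF21 libraries 2 and 5 below it. The exons of Mcm7 share 7.25% of their bases with Ap4m1 and 1.45% with Cops6 on the opposite strand, so reads there cannot be told apart without the strand setting, which the sources used here do not state.

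The log2 fold changes of the repair helicase pair had opposite signs, but both 95% intervals included 0 (-0.98 to 0.08 for Mcm8, -0.21 to 0.49 for Mcm9). The difference between these genes was not tested. Mcm8 (chromosome 2, 132816141 to 132844197) was low, at 2.89 ± 0.69 CPM in PBS and 2.11 ± 0.45 CPM after rFGF21 (SD, n = 4 each), a log2 fold change of -0.45 ± 0.24 (SE). Mcm9 (chromosome 10, 53536315 to 53630439) was the member whose mean was higher after rFGF21, 6.67 ± 0.87 against 7.35 ± 1.21 CPM, a log2 fold change of 0.14 ± 0.16 (SE). Neither was called, and 19.2% of the exonic bases of Mcm9 overlap Asf1a on the opposite strand.

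The log2 fold changes of the ring genes and Cdt1 were more negative when PBS library 5 was left out. That library had the lowest level in its group of Mcm2 to Mcm8 and of Cdt1, but the highest of Mcm10. Its summed level of Mcm2 to Mcm7 was 71.2 CPM, against 131, 149 and 156 CPM in PBS libraries 1, 2 and 4, and against 70.5 to 117 CPM in the 4 rFGF21 libraries. Without it, the groups did not overlap for 6 of the 10 members (Mcm2, Mcm3, Mcm5, Mcm6, Mcm10 and Cdt1), beside 8.94% of all genes with rFGF21 entirely lower and 8.02% entirely higher. The log2 fold changes were then -0.69 ± 0.18 for Mcm2, -0.69 ± 0.16 for Mcm3, -0.82 ± 0.23 for Mcm5, -0.95 ± 0.26 for Mcm6 and -0.66 ± 0.18 for Cdt1 (SE). In that fit 1 of the 10 members was called lower, Mcm10 at -1.73 ± 0.34 (SE), beside 0.791% of genes lower and 0.551% higher; the edgeR adjusted p of the other members ranged from 0.0772 for Mcm3 to 0.741 for Mcm9. PBS library 5 was singled out because it lay inside or below the rFGF21 range of Mcm2, Mcm3, Mcm5, Mcm6 and Cdt1. That their groups part without it follows from that choice, and so do their more negative log2 fold changes. The SE and adjusted p of these genes in that fit depend on the same choice and give no support. The shares over all genes were not chosen so. Overlap of the groups was not counted with any other library left out. Its total of 71871913 reads is near the top of the range. Over all genes, though, it stood apart from the other PBS libraries (chi-square per degree of freedom 161 to 279), as did PBS library 4 (152 to 279), whereas PBS libraries 1 and 2 differed least (52.4). The part of these differences in the levels of the members was not tested.

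**Figure D2:**
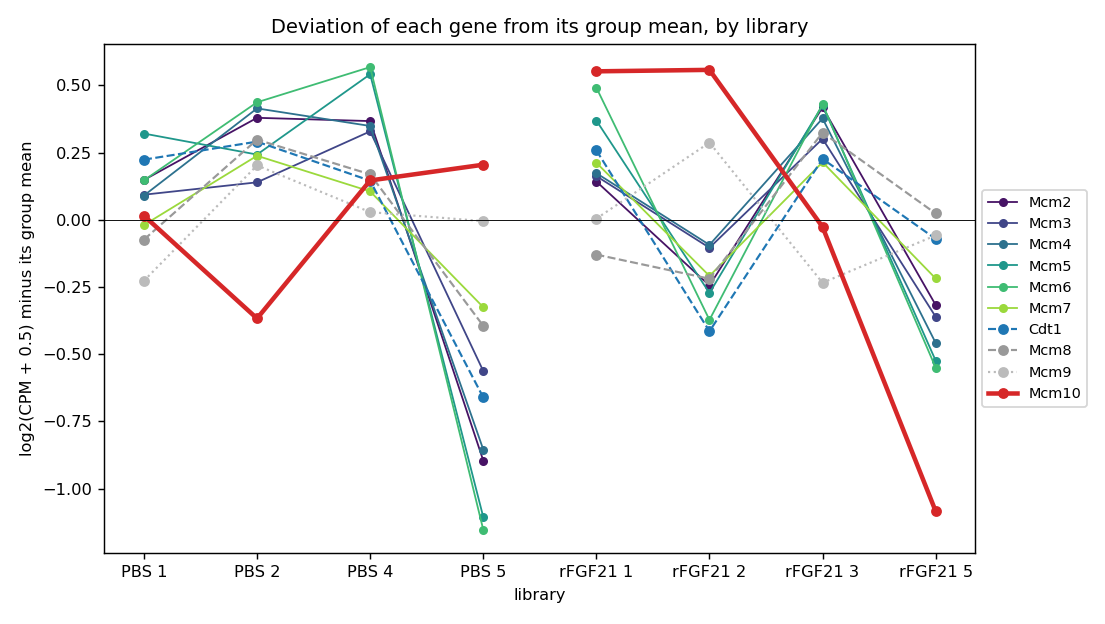
Deviation of log2(CPM + 0.5) from the gene's own group mean (vertical axis) in each of the 8 libraries; lines join the libraries of a group for the eye and have no order. The 6 ring genes dip together in PBS library 5 and in rFGF21 libraries 2 and 5, while Mcm10 is above its group mean in PBS library 5 and rFGF21 library 2 and dips with them in rFGF21 library 5, its lowest at 6.25 CPM.

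Whether the other licensing genes follow Mcm10 was also asked within the groups, which the comparison of treatments does not use. Each gene was centred on its group mean, and Mcm10 was correlated with each of the 9 other members over the 8 libraries. Pearson's r ranged from -0.42 for Mcm8 to 0.25 for Mcm3, and 0 of 9 passed. The smallest exact permutation p was 0.293 (two-sided, libraries permuted within groups, 576 arrangements) and the smallest Benjamini-Hochberg adjusted p was 0.978 over the 9 pairs. Spearman's rho ranged from -0.71 for Mcm8 (exact permutation p = 0.0781, adjusted p = 0.703) to 0.45 for Mcm9 (exact permutation p = 0.366). When the libraries with the most extreme Mcm10 values, rFGF21 libraries 2 and 5, were left out, r ranged from -0.80 to -0.03 and none was positive. That choice was close, since Mcm10 was at 20.5 CPM in rFGF21 library 1 and 20.6 CPM in rFGF21 library 2. Leaving out rFGF21 libraries 1 and 5 instead was not run, so the absence of positive values may depend on the choice. Leaving out single libraries moved r both ways: the highest was 0.60 without PBS library 5 and the lowest -0.83 without rFGF21 library 5. With 8 libraries only strong relations can be told from the spread.

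The 9 other members were compared with each other in the same way, a set of 36 pairs added after the data had been seen. All 15 pairs among Mcm2 to Mcm7 passed, with r from 0.89 to 0.98 (exact permutation p from 0.00174, the smallest the arrangements allow, to 0.0226; adjusted p from 0.0208 to 0.0478 over the 36 pairs). By Spearman's rho, which ranged from 0.69 to 0.98, 3 of these 15 pairs passed (smallest exact permutation p = 0.00174, adjusted p = 0.0417). Leaving out the libraries most extreme for the lower-numbered gene of each pair gave r from 0.72 to 0.97 among the ring genes. For each ring pair these were PBS library 5 and rFGF21 library 5. Leaving out PBS library 5 alone gave 0.82 to 0.97. Of the 36 pairs 17 passed in all. With a library left out, 14 passed without PBS library 2, 6 without PBS library 4 and 0 without any 1 of the other 6 libraries. Each of these runs had 144 arrangements, those in which 14 and 6 pairs passed included.

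Cdt1 had r between 0.83 and 0.92 with the ring genes, and passed with 1 of 6, Mcm7 (r = 0.89, exact permutation p = 0.0208, adjusted p = 0.0469, rho = 0.93). Mcm8 had r between 0.70 and 0.84 with them and also passed with 1, Mcm2 (r = 0.84, exact permutation p = 0.0191, adjusted p = 0.0458). Mcm9 passed with none of its 8 partners, with r between -0.33 and -0.02. The 6 ring genes thus varied together from library to library, whereas no such relation was detected for Mcm10 or Mcm9; that the correlations of Mcm10 are weaker than those within the ring was not tested as a difference.

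Levels of different genes were compared as FPKM, computed here from the counts, the library totals and the length of all annotated exons. In PBS the order of mean FPKM was Mcm7 (7.001 ± 1.27), Mcm10 (6.71 ± 0.94), Mcm6 (5.29 ± 2.24), Mcm3 (4.99 ± 1.21), Mcm5 (4.81 ± 1.92), Mcm4 (3.67 ± 1.30), Cdt1 (3.03 ± 0.89), Mcm2 (2.39 ± 0.85), Mcm8 (0.756 ± 0.190) and Mcm9 (0.711 ± 0.103) (SD, n = 4). Neighbours in that order overlapped in their FPKM values except Mcm2, at 1.16 or above, and Mcm8, at 0.981 or below. After rFGF21 Mcm10 stood at 2.01 ± 0.87 FPKM, between Cdt1 (2.29 ± 0.50) and Mcm2 (1.82 ± 0.43), and overlapped with both. Mcm7 was then apart at the top, with a lowest FPKM of 5.48 against a highest of 4.36 for Mcm3, the next in order. Mcm2, at 1.45 FPKM or above, was also apart from Mcm9, the next below it, at 0.984 or below.

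The length chosen for a gene matters for this order. All annotated exons of Mcm10 cover 7692 bases, whereas its longest coding transcript in GENCODE release M21, with 20 exons, has 4867 bases. Per kilobase of the longest coding transcript, Mcm10 stood at 10.97 and Mcm7 at 10.75 CPM per kilobase in PBS, ahead of Mcm3 at 6.36. After rFGF21 Mcm10 stood at 3.13 and Mcm7 at 9.64 on the same scale. The longest coding transcript of Mcm2 covers 3371 of 6956 exonic bases, and per kilobase of that transcript its PBS level was 5.08, above Cdt1 at 4.46 and Mcm4 at 3.77.

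**Figure D3:**
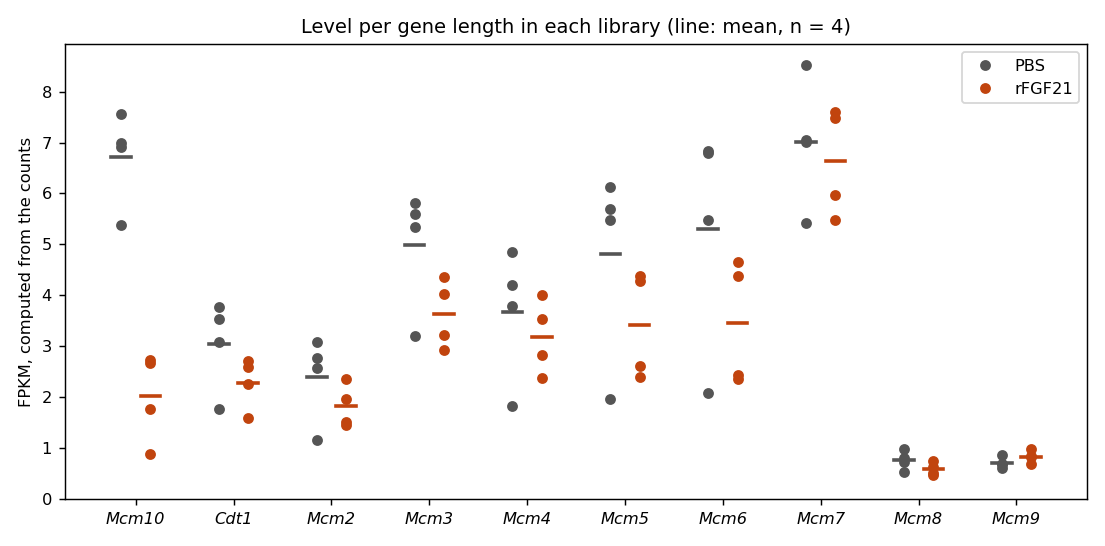
FPKM computed from the counts (vertical axis, from 0) of the 10 genes in each library, PBS in grey and rFGF21 in orange, with the mean of 4 libraries as a line. Mcm10 lies with Mcm7 at the top in PBS, at 5.38 to 7.57 FPKM, and with Cdt1 and Mcm2 after rFGF21, at 0.887 to 2.73 FPKM.

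By pattern over the 8 libraries, the genes most like Mcm10 (Pearson's r of log2(CPM + 0.5), leaving out predicted genes) were Cyp4v3 (r = 0.99), Mipep, Coq9, Selenbp2 and Gpr146 (each r = 0.98). Their log2 fold changes were between -0.88 for Selenbp2 and -0.34 for Coq9, smaller than that of Mcm10. Selenbp2 has a near-identical copy, so its counts are uncertain. On this measure the ring genes had r with Mcm10 from 0.29 for Mcm4 to 0.66 for Mcm3, and Mcm3 ranked 2082 among 18314 genes. These values include the difference between the groups and are a description over 8 libraries.

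The rest of the replication machinery was read from lists of 94 genes outside the members, of which 93 passed the filter. With edgeR 1 was called lower and none higher, beside 1.67% and 1.15% of all genes; at an unadjusted p under 0.05, 13 were lower and 0 higher, beside 9.86% and 8.92% of all genes, DESeq2 called 7 lower and 0 higher, beside 5.21% and 4.45%, and limma on FPKM called 0. These shares are the background for the single lists as well. Of the 93, 74 had a log2 fold change below 0, with a median of -0.19, beside 49.6% and 0.00 over all genes. Without PBS library 5, edgeR called 2 lower, E2f8 and Pole, beside 0.791% of all genes lower and 0.551% higher in that fit.

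The gene that was called was E2f8, an E2F family member that represses cell cycle genes. It was read at 4.39, 6.86, 6.45 and 3.33 CPM in PBS libraries 1, 2, 4 and 5 and at 1.61, 1.62, 1.93 and 3.20 CPM in rFGF21 libraries 1, 2, 3 and 5. The groups came close but did not overlap. E2f8 fell by 1.33 ± 0.30 on the log2 scale (SE, edgeR adjusted p = 0.0434). The call held when PBS library 5 or rFGF21 library 5 was left out, and was lost when any of the other 6 was (edgeR adjusted p from 0.0792 to 0.127). Of the 13 E2F and RB factors, E2f1, the classic activator of licensing genes, stood at -0.83 ± 0.30, E2f6 at -0.27 ± 0.09 and E2f2 at 0.54 ± 0.25 without passing; DESeq2 called 2 of this list lower, E2f8 and E2f1.

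Among 9 genes of origin binding and loading, 0 were called by edgeR, 1 was lower at an unadjusted p under 0.05 and DESeq2 called the same gene, Gmnn. Gmnn encodes geminin, the inhibitor of CDT1, and had groups that did not overlap, 10.8 ± 1.29 CPM in PBS and 7.98 ± 0.88 CPM after rFGF21 (SD, n = 4 each; log2 fold change -0.44 ± 0.13 SE, edgeR adjusted p = 0.111). Cdc6, which loads the ring together with CDT1, stood at -0.69 ± 0.34 and Orc1, the largest subunit of the origin recognition complex, at -0.34 ± 0.31. Orc3 stood at 0.15 ± 0.11. The median of the list was -0.03.

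Among 16 genes of origin firing, which include the partners of the ring in the active helicase, 0 were called by edgeR, 2 were lower at an unadjusted p under 0.05, and DESeq2 called 1 lower, Gins4. The GINS subunit genes Gins4 (-0.40 ± 0.12), Gins1 (-0.58 ± 0.23) and Gins2 (-0.54 ± 0.25) and Mtbp (-0.46 ± 0.22) had the smallest p-values. Cdc45 stood at -0.37 ± 0.26. The median was -0.33, and 14 of the 16 were below 0.

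Among 30 genes of the fork and of DNA synthesis, 0 were called by edgeR, 7 were lower and 0 higher at an unadjusted p under 0.05 (9.86% and 8.92% of all genes), and DESeq2 called 3 lower (5.21% of all genes). Tk1, thymidine kinase (-0.58 ± 0.16, edgeR adjusted p = 0.0794), Prim2, a primase subunit (-0.66 ± 0.22), and Pola2 (-0.42 ± 0.14) and Pole (-0.77 ± 0.28), subunits of DNA polymerases alpha and epsilon, had the smallest p-values. The edgeR adjusted p of Pole was 0.0458 without PBS library 5, and that of Tk1 was 0.0443 without rFGF21 library 3. Pcna, the sliding clamp, stood at 40.5 ± 4.77 CPM in PBS and 36.3 ± 5.35 CPM after rFGF21 (SD, n = 4 each).

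Genes of CDT1 turnover had 0 of 6 called by edgeR, 0 at an unadjusted p under 0.05 and 0 by DESeq2. Their median was -0.03, with Ddb1 at 0.18 ± 0.09, Fzr1 at 0.15 ± 0.12, Cul4a at -0.12 ± 0.08 and Skp2 at -0.29 ± 0.22. Hrob, a partner of MCM8 and MCM9, stood at -0.11 ± 0.46 and was positive when rFGF21 library 2 or PBS library 1 or 4 was left out and with limma on log2(FPKM + 0.1). It was not called by edgeR or DESeq2, nor was it at an unadjusted p under 0.05, and Mcmdc2 did not pass the filter on low counts.

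Mitotic and cycling markers had 0 of 17 called by edgeR, 0 at an unadjusted p under 0.05 and 0 by DESeq2, and a median of -0.15. Mki67 was read at 18.0, 20.9, 21.7 and 16.2 CPM in PBS libraries 1, 2, 4 and 5. It was read at 16.1, 9.20, 21.2 and 18.2 CPM in rFGF21 libraries 1, 2, 3 and 5. Its groups overlapped, and PBS library 5 was its lowest PBS library, as for the ring genes, though by a smaller margin. Top2a stood at 13.4 ± 2.09 and 12.4 ± 2.60 CPM (SD, n = 4 each), with Aurka at -0.56 ± 0.28, Ccna2 at -0.29 ± 0.17, Aurkb at -0.43 ± 0.27 and Cdk1 at -0.37 ± 0.24.

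**Figure D4:**
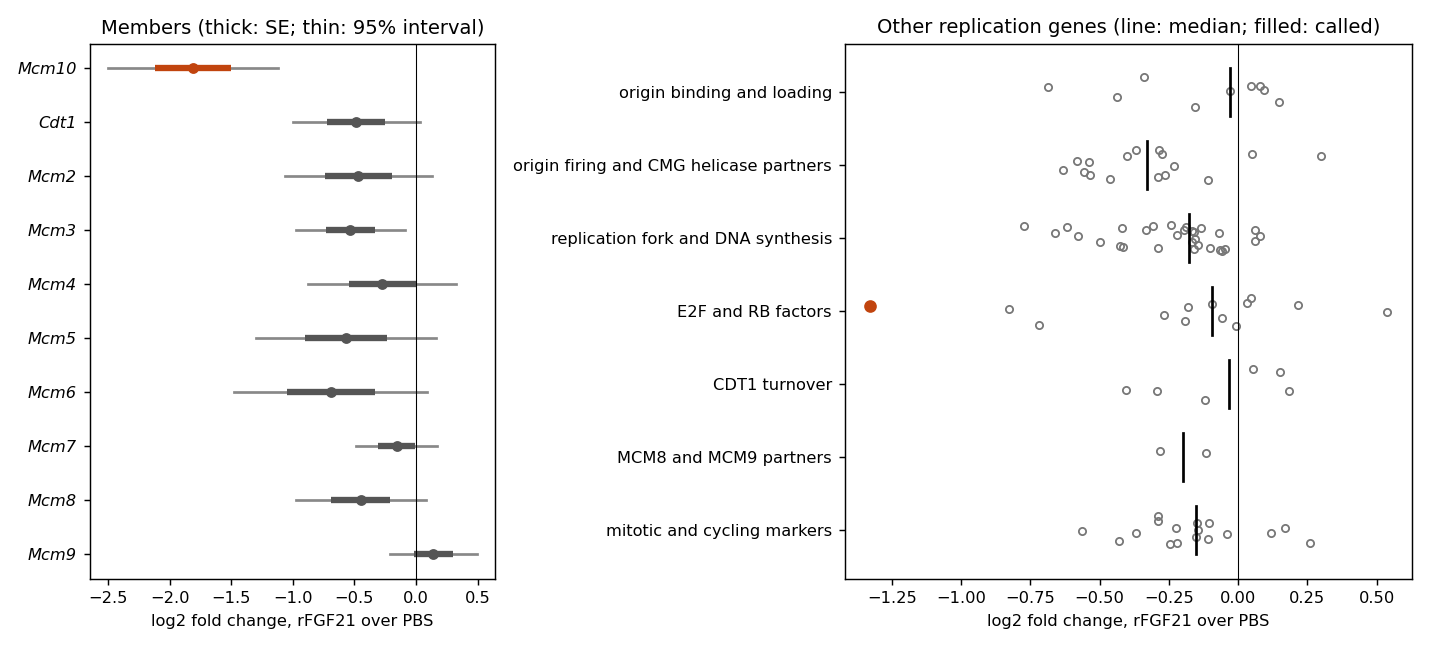
Log2 fold change of rFGF21 over PBS (horizontal axes) for the 10 members, with SE as thick and the 95% interval as thin lines, and for the other replication genes by list, with a line at each median and a filled point for the gene called at an adjusted p under 0.05. Mcm10 at -1.81 lies apart from the 9 other members, which run from -0.69 to 0.14, and E2f8 at -1.33 is the filled point.

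Cycling cells in an injured liver can be of several types, so markers of those types were read beside the members. Summed over 5 cholangiocyte markers, PBS libraries held 38.0 to 54.1 CPM and rFGF21 libraries 52.9 to 92.1 CPM; edgeR called 0 of 5, all 5 were higher at an unadjusted p under 0.05 (8.92% of all genes), and DESeq2 called 2 higher (4.45% of all genes). Summed over 7 Kupffer cell and macrophage markers, PBS libraries held 411 to 719 CPM and rFGF21 libraries 188 to 572 CPM; edgeR called 0 of 7, 1 was lower at an unadjusted p under 0.05, and DESeq2 called 0. For 6 stellate cell markers the ranges were 290 to 399.6 CPM in PBS and 395 to 568 CPM after rFGF21, with 0 called by edgeR, 3 higher at an unadjusted p under 0.05 and 2 higher by DESeq2. Endothelial markers ranged from 72.0 to 151 and from 65.7 to 130 CPM, T and B cell markers from 2.26 to 3.45 and from 2.53 to 3.57 CPM, neutrophil markers from 3.56 to 8.80 and from 5.46 to 13.8 CPM, and erythroid markers from 15.6 to 21.0 and from 14.4 to 19.996 CPM. EdgeR called none of these; at an unadjusted p under 0.05, 1 neutrophil marker was higher and 1 erythroid marker, Klf1, was lower. DESeq2 called 1 erythroid marker lower and none of the endothelial, T and B cell or neutrophil markers. Of the hepatocyte markers edgeR called 0 of 5, 1 was lower at an unadjusted p under 0.05, and DESeq2 called 0. Their part in the levels of the members was not tested.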

How the data were processed

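RNA-seq of 8 mouse liver libraries (4 PBS, 4 rFGF21) was analysed. The deposited table gives whole-number read counts per gene, per the file headers, in 10 columns, 5 for each group of 4 samples. Of these, the 8 with a matching FPKM column in the header entered the fits and the 2 others did not. The authors' FPKM values were not used here, because the columns cannot be tied to single samples and 1 measure per library was kept; where FPKM appears it was computed from the counts and the exon lengths of GENCODE release M21 (30177 of 30266 genes). The submitters' processing notes name Bowtie 0.12.2 and mm8; the sources used here do not name the counting tool or its strand setting. The table's coordinates match GENCODE release M21 (GRCm38) for 9 of the 10 members, Cdt1 excepted, and are given as GRCm38.

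The counts were filtered with filterByExpr, scaled by TMM and tested with edgeR 4.0.16 (R 4.3.3; glmQLFit, glmQLFTest, two-sided, Benjamini-Hochberg over 18315 genes); SE follow from the F statistic. DESeq2 1.42.0 and limma 3.58.1 on log2(FPKM + 0.1 or 1) were alternatives, with other filters and each library left out. No pair of libraries agreed within sampling noise (chi-square per degree of freedom at least 52.0). On simulated counts of this comparison (18315 genes, 50 genes per fold) edgeR recovered 16% of genes changed 1.5-fold, 50.0% at 2-fold, 94% at 4-fold and 90.0% at 8-fold; 12 of 137 calls were false. Totals ran from 62756328 to 73313449 reads, so counting error is small for genes at the members' levels.

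Members and lists were chosen with earlier results of these data known. Genes named are the members, called list genes, up to 4 per list with the smallest p, a fixed set (Orc1, Cdc6, Gmnn, Cdc45, Pcna, E2f1, Mki67, Top2a) and the 5 genes nearest to Mcm10 by each of 2 measures. A gene of the lists that this rule names is not reported here.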

Additional observations from a re-analysis of the deposited data

Results flagged for a closer look

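Among 80 groups of 4 libraries (40 genes named, in PBS and in rFGF21), 1 held a library far from the rest by Dixon's criterion, which chance meets in about 1 group of 20. Hrob, a partner of MCM8 and MCM9, was read at 0.494 CPM in rFGF21 library 2, against 1.22 to 1.30 CPM in the other 3 rFGF21 libraries. No member met the criterion, PBS library 5 included.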

How the results depend on the processing

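Over 15 alternatives, the log2 fold change of Mcm10 ran from -1.99 to -1.40. Its call was lost with limma on unfiltered log2(FPKM + 0.1) values (adjusted p = 0.0657) and was kept in the other 14, the 8 that each left out a library among them (edgeR adjusted p 0.0138 to 0.0492). None of the 9 other members was called in any of the 15, and none changed sign. The count of genes called, 516, was 1527 with DESeq2, 198 with edgeR and no filter, 238 and 252 with limma on log2(FPKM + 0.1) and log2(FPKM + 1), 100 with limma and no filter, and 131 to 486 with a library left out (lowest without rFGF21 library 1; over 1.5 times fewer without any rFGF21 library or PBS library 1 or 5). The cause was not tested. The limma settings used FPKM computed from the counts and library totals, without TMM. The count of other replication genes called, 1, was 7 with DESeq2, 0 with edgeR and no filter, 0 in each of the 3 limma settings, and 0 to 2 with a library left out. Hrob turned positive in limma on log2(FPKM + 0.1) (0.033, with and without the filter), and with a library left out it ran from -0.39 to 0.18; Top2a ran from -0.21 to 0.032 there. The count of members that varied with Mcm10 within groups was 0 in each alternative run, which shows little about stability where a library was left out, since 144 arrangements allow no p below 0.00694. The 17 pairs of other members became 13 on log2(FPKM + 0.1) and 0 to 14 with a library left out; r among Mcm2 to Mcm7 then stayed between 0.82 and 1.00. No paired analysis was possible because the column numbers do not match the replicate numbers of the labels.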

Other observations

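After centring on group means, the genes whose deviations were most like those of Mcm10 over the 8 libraries were Cyp2f2, a cytochrome P450 (r = 0.98), Ccl4, a chemokine gene (r = 0.98), Mccc2, an enzyme of leucine breakdown (r = 0.97), Tigd5 (r = 0.96) and C8a, a complement component (r = 0.96). No licensing gene was among them; Mcm3 was the nearest member, at rank 5279 of 18314 genes. Their edgeR adjusted p for rFGF21 against PBS were 0.230 for Cyp2f2, 0.364 for Ccl4, 0.459 for Mccc2, 0.465 for Tigd5 and 0.497 for C8a. These 5 are the highest of 18314 values over 8 libraries and are given as a description.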
